A study of Mus musculus with 8 samples.

Results

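Regions of methylated DNA that were called in adult enterocytes and in no other cell group numbered 1009, which was 0.214% of the 471333 autosomal regions found in the small intestinal epithelium of the mouse. They were chosen from the peak calls themselves. The 8 peak lists were merged wherever peaks shared 1 bp, and a region was kept when both enterocyte libraries had a peak in it and none of the other 6 libraries did. The calls of all libraries, and with them the tags and scores of the peaks, therefore picked these regions, and their values are given as a description with no test.

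DNA was profiled by MBD pull-down, in which a methyl-CpG-binding domain captures fragments that carry methylated CpGs before they are sequenced. Each of 4 groups had 2 biological replicates, and all mice were of mixed C57BL/6 CD1 strain. The enterocytes came from villi shaken off the small intestine of Lgr5EGFP-Cre-ERT males at postnatal day 60 and were sorted as living EpCAM+ cells without CD31 or CD45. The intestinal stem cells (ISC) came from the crypts of such males and were sorted for high Lgr5-EGFP. The embryonic cells were living EpCAM+ CD31- CD45- epithelium from small intestine at E12.5 and E14.5. About 200000 cells were sorted and 1 µg of DNA was used for each replicate, per the labels' protocols. The EpCAM gate takes all epithelial cells of the villus and does not separate absorptive from secretory cells. Peaks of methylated DNA give no expression of markers, so the labelled cell type was not checked here.

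Enterocytes are the absorptive cells that line the villus. They descend from Lgr5+ stem cells at the crypt base, stop dividing as they leave the crypt, and carry the enzymes and transporters that digest and take up nutrients. CpG methylation is copied to the new strand at each division by the maintenance enzyme Dnmt1, while the Dnmt3 enzymes can add it at new sites and the Tet enzymes oxidise it. A region with MBD signal in enterocytes and none in stem cells is thus one where these cell states may differ in methylated CpGs. In sorted bulk cells, methylation of more cells and denser methylation per cell cannot be told apart.

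The enterocyte libraries held 43343543 and 39142426 tags (mapped fragments, the total tags of the file headers) and gave 164157 and 232179 peaks. The limit of 1 tag per position was a setting of the caller, and the totals were used as given. The other 6 libraries held 31438314 to 55442400 tags and gave 84990 to 338262 peaks. The fragment length fitted by the caller was 164 and 126 bp in the enterocyte libraries and 57 to 115 bp in the others, and median peak length was 849 and 615 bp against 272 to 586 bp. Long peaks and a long fitted fragment were thus shared by the enterocyte libraries, and their part in the calls below was not tested.

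Few enterocyte regions lacked a peak everywhere else. Of the 131470 regions called in both enterocyte libraries (27.9% of all regions), the 1009 made up 0.767% (95% Wilson interval 0.722 to 0.816, counting error only). A further 3988 had a peak in exactly 1 other library, which is 0.846% of all regions, and 24525 had one in all 6. Sharing with both stem cells and the E14.5 epithelium was common: 56460 enterocyte regions, or 42.9%, had their other peaks in these 2 groups and none at E12.5. A peak elsewhere in ISC alone was found at 4004 enterocyte regions, in E14.5 alone at 3406 and in E12.5 alone at 196. The peaks were weaker the fewer libraries shared them. To compare strength, each peak was given the percentile of its score within its own list, and a region the lower of its 2 enterocyte percentiles. The median of this lower percentile was 14.8 for the 1009 regions, 18.8 with 1 other library and 76.7 with all 6.

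**Figure D1:**
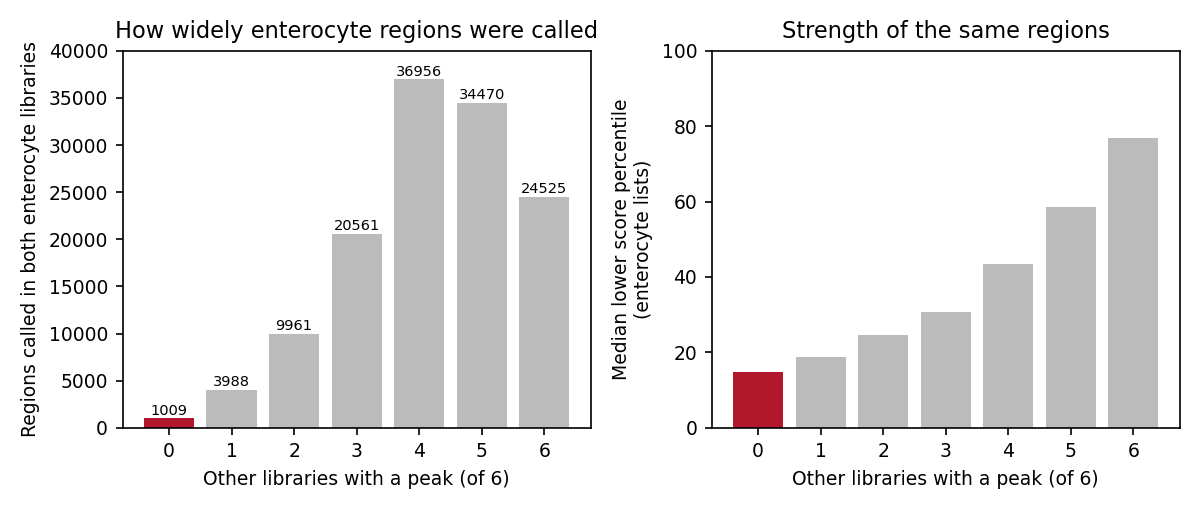
Left, number of regions called in both enterocyte libraries (y) by the number of the other 6 libraries with a peak in the region (x). Right, median lower score percentile of the same regions in the enterocyte lists (y, 0 to 100). The 1009 enterocyte-only regions, in red, are the smallest class and the weakest, at a median percentile of 14.8 against 76.7 for the 24525 regions called everywhere.

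By the same rule, ISC had 3140 regions of its own (0.666% of all regions), E14.5 epithelium 17156 (3.64%) and E12.5 epithelium 620 (0.132%). Both replicates called 31.7% of all regions in ISC, 44.0% at E14.5 and 7.99% at E12.5. Of those, the group's own regions made up 2.10%, 8.28% and 1.65%, so the enterocyte share of 0.767% was the lowest of the 4 with full lists. That order depended on how the lists were read. When lists were cut to equal length, the 84990 peaks of highest score in each, 1819 regions or 3.26% were enterocyte-only, above the 2.74% of ISC, and when a peak counted only if it covered 50% of a region the enterocyte share was 5.13% against 3.80% in ISC and 3.98% at E12.5. With intervals of 100 bp either side of summits the enterocyte share was 1.53% and again the lowest, as it was with the stricter 50% of each list, at 1.45%, and with peaks merged within 500 bp, at 0.595%.

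The number also rests on single libraries, since every library that is dropped removes a condition. Without enterocyte replicate 1 it was 11328, and without enterocyte replicate 2 it was 4149. Without ISC replicate 1 or 2 it was 1539 or 2581, and without E14.5 replicate 1 or 2 it was 1936 or 1803. Without E12.5 replicate 1 or 2 it was 1105 or 1086, and without both E12.5 libraries 1206. The E12.5 lists, the shortest, thus removed the fewest candidates, and ISC replicate 2 removed the most among the other groups. Of the 3988 regions with 1 other peak, that peak was in ISC replicate 2 in 39.3%, although this library gave 21.3% of the peaks of the 6. The shares were 23.2% for E14.5 replicate 1, 19.9% for E14.5 replicate 2, 13.3% for ISC replicate 1, and 2.41% and 1.93% for the E12.5 libraries.

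Enterocyte-only peaks were weaker than enterocyte peaks at large. They held 26 to 189 tags in replicate 1 (median 41) and 20 to 164 in replicate 2 (median 34), while all regions called in both enterocyte libraries had medians of 61 and 55. Scaled by library size, the medians were 0.946 and 0.869 RPM (tags per 1000000 tags of the library), against 1.41 in both replicates for all enterocyte regions. The fold over local background, the authors' value, had a median of 4.52 and 5.31, against 4.76 and 5.69. In 941 of the 1009 regions (93.3%) at least 1 of the 2 peaks was below the median score of its list, against 52.0% of all enterocyte regions, and in 708 (70.2%) in the lowest 25%, against 26.1%. Both peaks were in the lowest 25% in 262 of the 1009, against 6131 of the 131470 (4.66%). Both peaks were above the median of their lists in 68 regions (6.74%), against 48.0% of all enterocyte regions, and in the top 25% in 8 regions (0.793%), against 22.8%. A single region was in the top 10% of both lists.

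**Figure D2:**
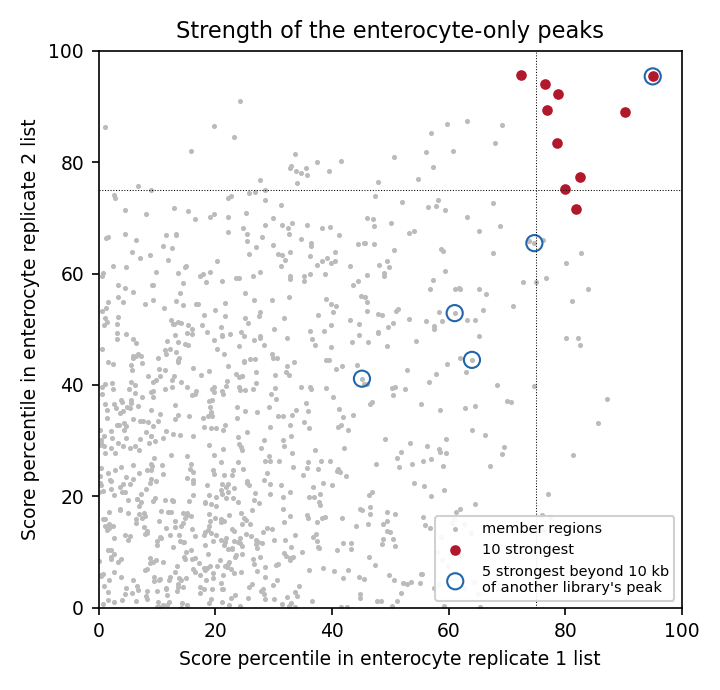
Score percentile of each of the 1009 enterocyte-only regions in the list of enterocyte replicate 1 (x) and replicate 2 (y), from 0 (weakest peak of the list) to 100. Red points are the 10 strongest by the lower of the 2 percentiles, blue circles the 5 strongest that lie over 10 kb from any other library's peak, and dotted lines mark the top 25% of each list. The points crowd at low percentiles, 8 lie past both lines, and 1 at 95.0 and 95.4 stands alone at the top right.

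When all enterocyte regions were sorted into 10 equal classes of 13147 by strength, the enterocyte-only share was lower in each class up to the ninth, 2.69% in the weakest, 1.87% in the next, 0.494% in the fifth and 0.152% in the seventh. The upper classes are thinly filled, with 9 regions in the eighth and 2 in each of the last 2 (0.0152%). The weakest 3 classes held 354, 246 and 170 of the 1009. The other groups' own regions were also more frequent among weak peaks: in the weakest class 7.22% of ISC regions, 22.6% of E14.5 regions and 3.93% of E12.5 regions were called in that group only. In the strongest class no ISC region of 14940 was ISC-only, and the E14.5 share was 0.106%. The E12.5 share there, 0.239% or 9 of 3766, was the highest of the 4 groups. The median lower percentile was 14.9 for ISC-only, 18.3 for E14.5-only and 21.8 for E12.5-only regions, beside the 14.8 of the enterocyte set.

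**Figure D3:**
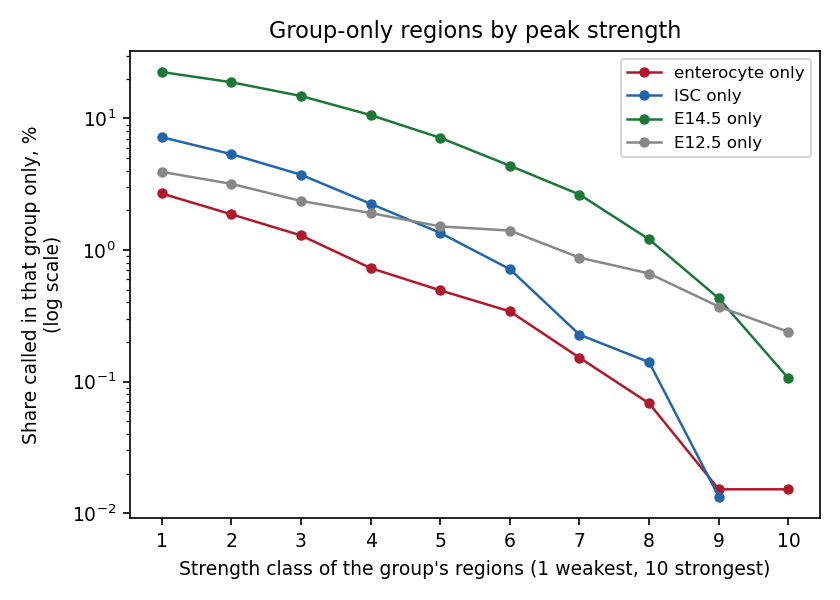
Share of a group's regions that were called in that group only (y, log scale, %) in 10 equal classes of peak strength (x, class 1 weakest), for enterocytes, ISC, E14.5 and E12.5. Each group's share is highest in the weakest class, and the enterocyte line runs from 2.69% to 0.0152%. The ISC point of the strongest class is 0 and is not drawn.

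Over these regions RPM was more often higher in replicate 1. The RPM of the 2 replicates was within 2-fold in 986 of the 1009 regions (97.7%), against 97.2% of all enterocyte regions, and was higher in replicate 1 in 652 (64.6%), against 49.0% of all enterocyte regions. Across the 1009 regions Pearson's r of log2 RPM between replicates was 0.72 and Spearman's rho 0.61, against 0.84 and 0.81 over all 131470 enterocyte regions. The regions share their libraries and were cut at low values, which narrows their range, so these are descriptions. The summits of the 2 replicates lay a median of 84 bp apart and within 100 bp in 563 regions (55.8%), against 90 bp and 54.0% for all enterocyte regions. Summits thus lay within 100 bp about as often in this set as in all enterocyte regions, which were longer. In each other group the share was higher in the group-only set than in all regions of both replicates. It was 76.1% against 59.6% in ISC, 82.4% against 65.6% at E14.5 and 65.5% against 44.5% at E12.5. Each replicate had a single peak in 1006 of the 1009 enterocyte-only regions. Peaks were longer in replicate 1 in 906 (89.8%), with medians of 720 and 537 bp. Over all enterocyte regions the medians were 894 and 715 bp, so longer peaks in replicate 1 were not particular to this set.

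The enterocyte-only regions were 459 to 2666 bp long, with a median of 738 bp against 956 bp for all enterocyte regions. ISC-only regions had a median of 445 bp, E14.5-only regions 388 bp and E12.5-only regions 552 bp. Each was shorter than the 856, 773 and 1055 bp of all regions called in both replicates of that group. A region spans the peaks of every library in it, so regions shared with other libraries can be longer for that reason alone. Peak length per replicate had medians of 720 and 537 bp against 894 and 715 bp for all enterocyte regions. In ISC it was 388 and 407 bp against 513 and 581 bp. In RPM per kb of peak, the enterocyte-only peaks had medians of 1.36 and 1.62, against 1.54 and 1.91 for all enterocyte regions. Enterocyte peaks as a whole were less dense than those of ISC and E14.5 epithelium. The weakest 5% of peaks ended at 1.69 RPM per kb in ISC replicate 1, at 1.70 in ISC replicate 2 and in E14.5 replicate 1, and at 2.19 in E14.5 replicate 2. Of the 1009 regions, 3.96% in enterocyte replicate 1 and 36.5% in enterocyte replicate 2 were above the value of ISC replicate 1, and none and 1.59% above that of E14.5 replicate 2. Of all enterocyte regions, 29.9% and 76.4% were above the first value and 1.93% and 22.7% above the second, so low density was shared with enterocyte peaks at large and was more pronounced in the 1009. Against the E12.5 lists, whose weakest 5% ended at 1.26 and 1.33, the shares were 85.2% and 61.8% in replicate 1 and 100% and 99.8% in replicate 2. Of all enterocyte regions the shares were 94.8% and 85.8% in replicate 1 and 99.999% and 99.97% in replicate 2. Density depends on peak width, and enterocyte peaks were long. In RPM not divided by width, the lower of a region's 2 enterocyte values was above the median peak of E14.5 replicate 2 in 61.7% of the 1009, of ISC replicate 1 and of E14.5 replicate 1 in 32.7% each, and of ISC replicate 2 in 23.1%. This comparison differs from that of density in its threshold as well as its scale. With the median as threshold for density too, the lower value was above it in 0 of the 1009 for each ISC and E14.5 library. Against the E12.5 medians the shares were 44.3% and 61.7% in RPM and 31.0% and 18.9% in density. The order of the libraries' peaks thus depended on the scale, and the part of density in the missing calls was not tested. The shares of the lower value are given for the 1009 only. They do not show whether the set differs from enterocyte regions at large.

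At the edge of the rule, the 5 regions taken were those whose stronger peak, by its percentile, was weakest, and they held 30 to 45 tags in enterocyte replicate 1 and 24 to 31 in replicate 2. The first of them, on chromosome 9 from 14838256 to 14838872 (all positions are mm9), had 36 and 26 tags at percentiles of 0.755 and 0.730. Just outside the rule were regions whose 1 other peak was among the weakest of its list. On chromosome 1 from 188963696 to 188964508, with 45 and 47 tags in enterocytes, ISC replicate 1 had a peak of 19 tags. On chromosome 15 from 88903117 to 88904079, with 74 and 38 tags, E14.5 replicate 1 had one of 24. Over all 3988 regions with 1 other peak, that peak had a median of 28 tags and stood at the median percentile of 40.7 of its list.

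Enterocyte-only regions mostly lay within a few kb of a peak of another group. The distance to the nearest peak of any of the 6 libraries ranged from 12 to 151646 bp, with a median of 1296 bp and quartiles of 543 and 2639 bp. It was at most 1 kb for 419 regions (41.5%) and at most 10 kb for 964 (95.5%). The medians for the other sets were 1125 bp for ISC-only, 1248 bp for E14.5-only and 1039 bp for E12.5-only regions. Strength differed little with distance: the median lower percentile was 14.9 for the 239 regions within 500 bp, 14.2 for the 180 farther out but within 1 kb, 15.1 for the 545 beyond 1 kb but within 10 kb and 15.0 for the 45 beyond. The median was 2145 bp to the nearest peak of ISC replicate 2, 3181 bp to ISC replicate 1, 2047 and 2194 bp to the E14.5 libraries, and 7191 and 9086 bp to the E12.5 libraries.

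**Figure D4:**
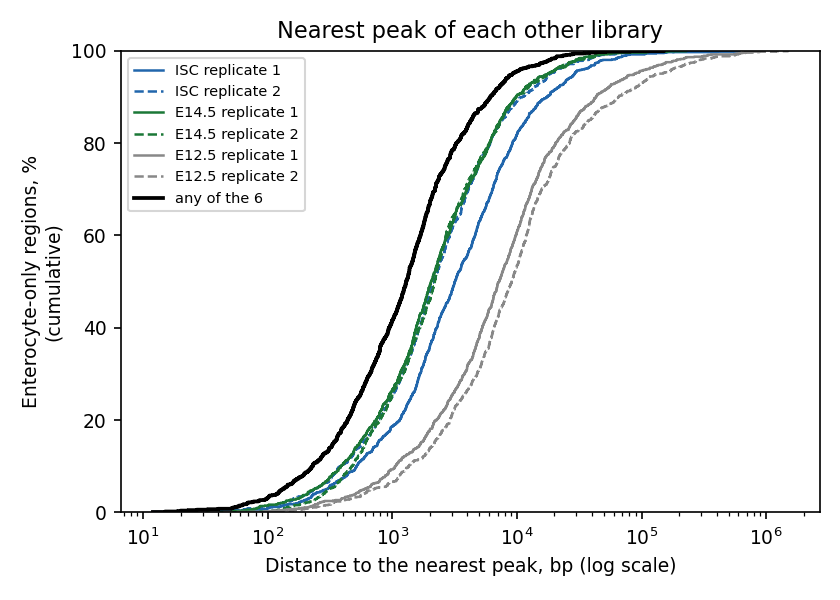
Cumulative share of the 1009 enterocyte-only regions (y, %) by distance to the nearest peak of each of the other 6 libraries (x, bp, log scale); colours mark the group, dashed lines replicate 2, and the black line the nearest of all 6. The black line passes 41.5% at 1 kb and 95.5% at 10 kb, and the E12.5 lines lie to the right.

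Peaks of the other libraries were present within 50 kb of most of these regions. Within 50 kb on either side, 854 of the 1009 (84.6%) had peaks of all 6 other libraries, against 93.7% of all enterocyte regions, and 3 had none. The median number of peaks there was 12 and 16 in the ISC libraries, 18 and 18 at E14.5, and 5 and 4 at E12.5. Around all enterocyte regions the medians were 14, 19, 20, 22, 7 and 6. These counts include peaks in the region itself. There the 1009 have no peak of the 6 by the rule, while 24525 enterocyte regions have a peak of all 6. The lower counts of the 1009 were thus partly set by the rule, and how much of the difference lies outside the regions was not tested. The enterocyte libraries, which have a peak in every region of both sets, had medians of 10 and 14 around the 1009, against 11 and 16. The region next to each of the 1009 was called in 1 library in 31.3% of cases, against 27.7% of all regions, and in at least 5 libraries in 30.9%, against 32.7%.

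The regions were scattered over the genome. All 19 autosomes held some, from 24 on chromosome 19 to 75 on chromosome 2. As a share of enterocyte regions they ran from 0.610% on chromosome 19 (95% Wilson interval 0.410 to 0.906) to 0.931% on chromosome 11 (0.738 to 1.18). These intervals overlap, but they hold counting error only and belong to the lowest and highest of 19 chromosomes. Whether the spread was even was not tested. Successive regions lay a median of 1.42 Mb apart. Of the 100 kb windows that held one, 956 held 1, 25 held 2 and 1 held 3. The window with 3 was on chromosome 4 from 149800001 to 149900000, where 16 of 38 regions were called in both enterocyte libraries. Windows with 2 and the fewest regions were on chromosome 5 from 43800001 to 43900000, where 2 of 3 enterocyte regions were enterocyte-only, and on chromosome 11 from 40200001 to 40300000. Within 1 Mb of the last region called on their chromosome lay 4 (0.396%, against 0.528% of enterocyte regions) and within 1 Mb of the first lay 7 (0.694%, against 0.666%).

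No more than 2 enterocyte-only regions followed each other without another region between them, and this happened 4 times. Of these pairs, 2 were on chromosome 3. The first joined 129269176 to 129270071, with 57 and 40 tags, and 129270524 to 129271759, with 83 and 39 tags, 453 bp apart. The second joined 95695112 to 95695860 and 95699445 to 95700021, with 23 to 43 tags. A pair on chromosome 18, from 32539560 to 32540171 and from 32542343 to 32543024, lay 2172 bp apart. The pair on chromosome 13 was 69431 bp apart and belongs to the stretch described next.

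The strongest of the 1009 regions lay on chromosome 13 from 66518615 to 66519805, 1191 bp long. It held 89 tags in enterocyte replicate 1 and 75 in replicate 2, with folds of 6.31 and 7.96, at percentiles of 95.0 and 95.4. Both peaks were thus well inside the strong end of their lists. The nearest peak of another library, of 17 tags in E14.5 replicate 1, was 43532 bp away, and the nearest ISC peak was 182314 bp away. Neither E12.5 library had a peak within 500 kb.

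This region stood in a stretch of 1067 kb, from 65635402 to 66702118, in which neither ISC library had a peak. The stretch was looked at after the values were seen. How well reads map there, its repeats and its copy number were not analysed here, which limits what the absence of peaks and the long distances mean. Neither E12.5 library had a peak in it either, and E14.5 replicates 1 and 2 had 1 and 2, of 12 to 34 tags. The enterocyte libraries had 4 and 7 peaks. Of the 9 regions there, 3 were enterocyte-only and another, from 66163102 to 66163894, was called in both enterocyte libraries, with 34 and 54 tags, and in E14.5 replicate 2 with 12. The other 2 enterocyte-only regions were the pair named above, at 66244743 to 66245646 with 61 and 31 tags and at 66315077 to 66315732 with 35 and 50. They had the largest distances from another library's peak among all 1009, 81312 and 151646 bp, and with the strongest region they were the 3 farthest from any ISC peak, at 456473, 386387 and 182314 bp. On the autosomes, 23 intervals of at least 500 kb had no ISC peak, and this was number 11 by length. The other 22 held no region called in both enterocyte libraries, but they were sparse in every library, with 0 to 8 regions each against the 9 here.

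**Figure D5:**
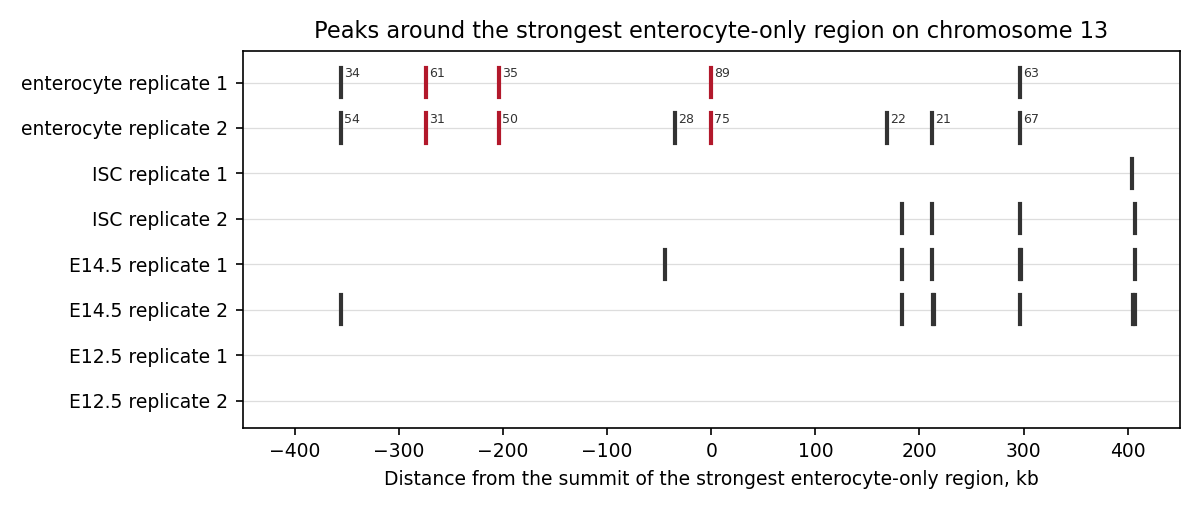
Peaks of the 8 libraries (rows) by distance from the summit of the strongest enterocyte-only region on chromosome 13 (x, kb). Each mark is 1 peak, drawn at fixed width and in red where it belongs to an enterocyte-only region; numbers are tags of the enterocyte peaks. The 3 red pairs stand in a span where ISC and E12.5 rows are empty, and the first ISC peak, in replicate 2, lies 183 kb to the right beside peaks of both E14.5 libraries.

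The next strongest regions had other libraries' peaks within a few kb. On chromosome 18, from 9214195 to 9215154, the replicates held 71 and 67 tags with summits 24 bp apart, and an ISC replicate 1 peak lay 4066 bp away. On chromosome 1, from 171409488 to 171410494, both held 65 tags, and the nearest peaks of 5 libraries, all but E12.5 replicate 2, were 3861 to 4152 bp away. On chromosome 2, from 136459708 to 136460546, there were 58 and 51 tags, and on chromosome 8, from 91795090 to 91795948, 61 and 49 tags with summits 1 bp apart. Both had their nearest peak in ISC replicate 2, at 3368 and 4002 bp. In these 4 regions the replicates differed by at most 12 tags.

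Some strong regions were flanked more tightly. On chromosome 16, from 36694459 to 36695552, with 70 and 73 tags, E12.5 peaks lay 341 and 348 bp away and peaks of the other 4 libraries 1746 to 1782 bp away. The regions with most tags among the 10 strongest were on chromosome 3, from 51747030 to 51748558, with 126 and 146 tags, and on chromosome 7, from 56776989 to 56778392, with 123 and 108. Their folds were low, 3.53 and 5.03 and then 4.51 and 4.18, and their summits lay 634 and 130 bp apart. They were longer than the median enterocyte region, at 1529 and 1404 bp against 956. The other 2 were on chromosome 1 from 138848448 to 138849304, with 56 and 71 tags and its nearest other peak 6786 bp away, and on chromosome 17 from 67639746 to 67640643, with 66 and 47 tags and an ISC replicate 2 peak 992 bp away.

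The 45 regions over 10 kb from any peak of another library were 4.46% of the set, and the same share was 3.03% for ISC-only, 5.67% for E14.5-only and 2.58% for E12.5-only regions. Among the 45, 3 were above the median of both enterocyte lists, beside 68 of the 1009 (6.74%). After the chromosome 13 region, the strongest was on chromosome 9 from 39316672 to 39317530, with 57 and 47 tags, 12498 bp from an E14.5 replicate 1 peak and 37930 bp from the nearest ISC peak. The third was on chromosome 6 from 98256922 to 98257774, with 52 and 40 tags and peaks of 4 libraries at 13382 to 13460 bp. On chromosome 4, the regions from 15775871 to 15776829 and from 50332488 to 50333130 held 57 and 32 and then 38 and 23 tags, and the nearest other peaks were 20101 and 10471 bp away. Apart from chromosome 13, the isolated regions thus held 23 to 57 tags among the 4 named. The medians were 41 and 34 for the 1009 and 61 and 55 for all enterocyte regions.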

How the data were processed

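MBD-enriched DNA of 8 libraries was analysed from the authors' peak lists, 1 per library. Per the labels' protocols, DNA was sheared to 150 to 250 bp and enriched with MethylMiner. The build mm9 and the tools Bowtie 1.1.2, SAMtools 1.2 and bcl2fastq 1.8.4 are named in the submitters' processing notes. Per the file headers, MACS 1.4.2 called each library alone, with no control, at a p cutoff of 1e-05, so a missing peak means only that tags missed the cutoff. Tags per peak are deposited whole-number counts. The deposited score is the caller's p-value on a negative log10 scale, used for percentiles within a list. The deposited fold is a ratio to local background.

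Peaks of the 19 autosomes were merged at 1 bp in Python 3.11.15 with pandas 2.3.3, and the steps were tested on simulated data. Presence, distances, RPM (tags per 1000000 of the library total) and percentiles were computed. The members and the alternatives were chosen with earlier results of these data known. With 2 libraries per group and a set chosen on the calls, no test was made. The rule for named regions took the 10 strongest by lower percentile, the 5 strongest beyond 10 kb of another library's peak, 5 just inside and 5 just outside the rule, 3 windows and the longest run. The gene table at hand is of another build than mm9, so genes, promoters, motifs and sequences were not used here. The files used here give tags only where a list has a peak, so tags at these regions in the other 6 libraries were not analysed.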

Additional observations from a re-analysis of the deposited data

How the results depend on the processing

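Of 1009 enterocyte-only regions with full lists, 40 were also found when each list was held to its 84990 highest-scoring peaks, which gave 1819, and 68 with the stricter 50% of each list, which gave 915. Weak peaks drop out of both by construction. With both enterocyte peaks in the top 25% of their lists 8 were left, with summit intervals 1766, and with 50% coverage 6314. As a share of enterocyte regions these settings gave 3.26%, 1.45%, 0.00609%, 1.53% and 5.13%, merging within 500 bp gave 0.595%, and leaving out both E12.5 libraries (chosen after seeing the data) 0.917%, against 0.767%. The median distance to another group's peak, 1296 bp, was 3018 bp with equal lists, 2124 bp with the stricter 50%, 3615 bp for the top 25%, 1793 bp with merging, 457 bp with summit intervals and 0 with 50% coverage, where an overlapping peak can count as absent. Leaving out each library gave 1086 to 11328 regions, 0.826% to 4.94% of enterocyte regions, and 1116 to 1434 bp. All chromosomes (also chosen after seeing the data) gave 1011 regions. Of 80 other values of the set, 50 stayed within their 95% interval, and of 207 distances of named regions 184 stayed within 1.5 times. In 17 further cases the named region was no longer found, so it has no distance. No paired analysis was possible because no result comes from a test and the replicate numbers name separate samples. Gene and sequence context was not run, since no annotation or genome of mm9 was used here.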

Other observations

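Off the autosomes, 2 regions met the same rule, both on chromosome X, where 144 regions were called in both enterocyte libraries. One, from 161420824 to 161421458, held 34 and 29 tags and lay 21724 bp from the nearest other peak. The other, from 166442610 to 166443612, held 90 and 108 tags, with another library's peak 2779 bp away. None of the 9 regions on chromosome Y that both enterocyte libraries called was enterocyte-only.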
